A study of Mus musculus with 75 samples.

Results

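Cisplatin and paclitaxel were compared directly in the gastrocnemius of Balb/c mice that carried C26 tumours. The comparison took every library of a C26 host given cisplatin (6 from females and 8 from males) and every library of a C26 host given paclitaxel (7 from females and 6 from males), which is 27 of the 74 libraries in the deposited table. C26 is a colon carcinoma line of the mouse, and hosts of its tumours lose muscle. Both arms shared the tumour, 1000000 cells injected on both sides, and both were dosed from day 12 at 75% of the maximum tolerated dose of their drug, in 2 cycles with 2 injections per week, with the muscle taken at day 25. The dose of each drug was thus set relative to its own tolerated maximum. Absolute doses, tumour sizes, body weights and food intake were not stated in the sources used, and the age of the mice is given there only in part. The mice with C26 tumours and saline (15 libraries) and the tumour-free mice with PBS and saline (15 libraries) serve only as reference levels. All animals carried the same labelled batch value, and no label ties samples to a cage or a preparation day, so the p values cover only the spread among the libraries, which may in part be technical.

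Cisplatin binds DNA and links its strands, which stalls replication and activates p53 in dividing cells. It enters cells partly through a copper transporter and is bound by the thiols of glutathione and metallothioneins. Paclitaxel binds the tubulin of microtubules and stops them from shrinking, which arrests cells in mitosis. In hosts of C26 tumours, interleukin-6 and related cytokines activate STAT3 in muscle, where acute-phase genes and ubiquitin ligases of the wasting programme are induced.

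The 27 libraries held 13913298 to 34236931 estimated counts each, recovered from the deposited log2 values. Y-linked genes followed the sex labels, with Ddx3y at most at -4.79 in females and at least at 3.64 in males. All 15 defining markers of skeletal muscle were measured, and their summed expression back-transformed to CPM, ran from 185267 to 363029 CPM in cisplatin and from 176160 to 426881 CPM in paclitaxel. The libraries differed in how expression related to transcript GC content. The GC slope of a library, in log2 units per standard deviation of transcript GC content, averaged -0.07 ± 0.21 (SD, n = 14) in cisplatin and 0.15 ± 0.27 (SD, n = 13) in paclitaxel, a difference within sexes of -0.23 (permutation test, p = 0.0153, adjusted over 4 library measures p = 0.0374). Mitochondrially encoded mRNAs took 10.3 ± 4.23% of expression in cisplatin and 6.30 ± 4.25% in paclitaxel (permutation test, p = 0.0187, adjusted p = 0.0374). Depth (permutation p = 0.129) and the share of the 10 most abundant genes (permutation p = 0.303) did not pass this test.

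A set of 8 libraries stood apart in both measures, with a GC slope above 0.1 and a mitochondrial share of 1.65 to 3.87%. They were 6 of the 13 paclitaxel libraries (female replicates 6 and 7, male replicates 1, 2, 3 and 5) and 2 of the 14 cisplatin libraries (male replicates 4 and 8). In the other 19 libraries the mitochondrial share ran from 7.14 to 17.0%. The part these libraries take in the results was not tested, so the differences below are given both over all 27 libraries and over the 19 libraries with a lower slope, 12 of cisplatin and 7 of paclitaxel, of which only 2 were male paclitaxel libraries.

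**Figure D1:**
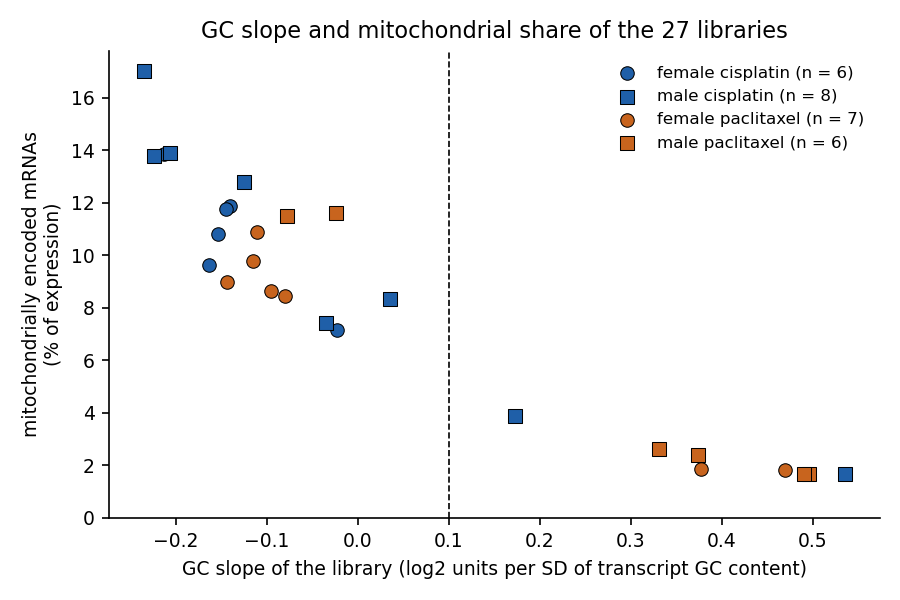
Each point is 1 library, with its GC slope on the x axis and the percent of expression from mitochondrially encoded mRNAs on the y axis, coloured by drug and shaped by sex; the dashed line marks a slope of 0.1. The 6 paclitaxel and 2 cisplatin libraries to the right of the line lie at or below 3.87%.

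Over all 13856 genes with sex as a block, limma called 308 (2.22%) at an adjusted p under 0.05. Of these, 56 were higher in cisplatin (0.404%) and 252 were lower (1.82%), and 4861 genes (35.1%) had an unadjusted p under 0.05. Differences are cisplatin minus paclitaxel on the log2 scale, and the value after ± is limma's standard error. The median over all genes was -0.01. When libraries were scaled without mitochondrial mRNAs, 36 genes were called, 2 higher and 34 lower, and the median was 0.06. The lean towards lower genes depended on the libraries and the fit. It was 1503 higher and 1300 lower with all 10 groups in the fit, 1093 and 1215 with quality weights, 2351 and 2078 without male cisplatin replicate 4, 1293 and 1256 without male paclitaxel replicate 4, and 1338 and 1143 without male paclitaxel replicate 6. Among the 19 libraries with a lower GC slope no gene was called by limma, while 1270 had an unadjusted p under 0.05, 832 of them lower in cisplatin (6%) and 438 higher (3.16%). All 308 called genes had the same sign there, with a median of 0.27 in place of 0.50 for the genes that were higher and of -0.53 in place of -0.69 for those that were lower. The difference among the 19 libraries was at least 0.5 times as large as over all 27 for 32 of the 56 higher genes and 226 of the 252 lower ones. The 2 fits share libraries, so the second is no independent check. The called genes also differed in composition. Transcripts of the higher genes had a median GC content of 44.1% and those of the lower genes 55.5%, against 50.1% over all genes.

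**Figure D2:**
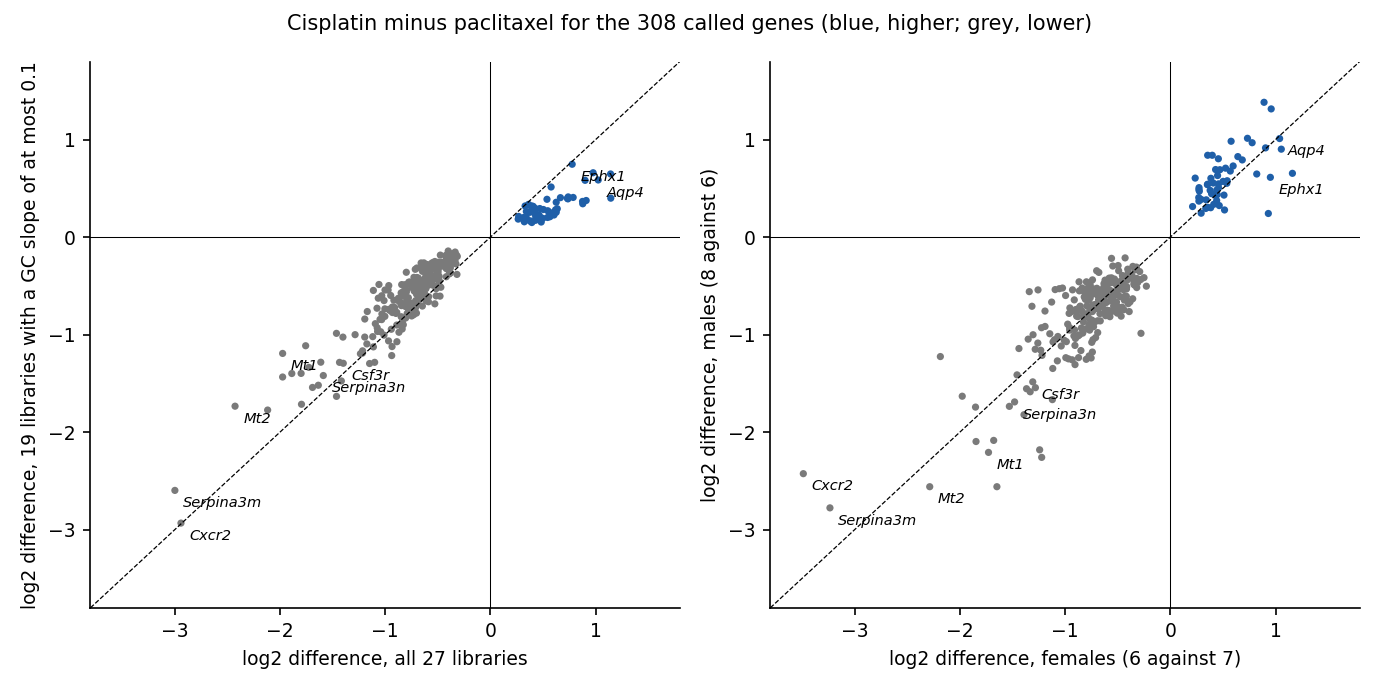
Each point is 1 of the 308 called genes, with its log2 difference (cisplatin minus paclitaxel) over all 27 libraries against the 19 libraries with a lower GC slope on the left, and in females against males on the right; dashed lines mark equality. Points keep their side of 0 in both panels, and on the left the higher genes (blue) shrink from a median of 0.50 to 0.27.

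Genes of the acute-phase response were lower in cisplatin hosts. Of 36 measured genes of interleukin-6 and STAT3 signalling and the acute phase, 9 were called lower and 0 higher (background 1.82% and 0.404%). Their median was -0.66, and -0.50 among the 19 libraries. At an unadjusted p under 0.05, 16 were lower and 1 higher in the 19 libraries, against 6% and 3.16% of all genes. Serpina3n (ENSMUSG00000021091), a secreted inhibitor of serine proteases, lay between 2.52 and 4.74 (median 3.29, log2) in the 14 cisplatin libraries and between 3.69 and 6.65 (median 4.93) in the 13 paclitaxel libraries. The arms overlapped, but all 14 cisplatin libraries lay below the paclitaxel mean. Serpina3n was 3.01-fold lower in cisplatin (-1.59 ± 0.29, adjusted p = 0.00916), and -1.42 among the 19 libraries. Lbp (ENSMUSG00000016024), which binds bacterial lipopolysaccharide, ran from 2.91 to 4.71 (median 3.49) in cisplatin and from 3.70 to 6.32 (median 4.73) in paclitaxel. It too lay below the paclitaxel mean in 14 of 14 cisplatin libraries, a difference of -1.21 ± 0.22 (adjusted p = 0.00916) and of -1.17 among the 19 libraries. For both genes the level in paclitaxel lay between those of cisplatin and of untreated tumour hosts. Mice with C26 tumours and saline stood at 6.01 ± 0.86 (SD, n = 15) for Serpina3n and 5.37 ± 0.51 for Lbp, and tumour-free mice at 1.61 ± 0.58 and 2.87 ± 0.43.

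Stat3 itself, the transcription factor of this response, ranged from 6.05 to 7.06 (median 6.32) in cisplatin and from 6.25 to 8.02 (median 7.23) in paclitaxel, a difference of -0.76 ± 0.17 (adjusted p = 0.0217) that was -0.46 among the 19 libraries. Socs3, the feedback inhibitor that STAT3 induces, spanned 0.73 to 3.64 (median 2.06) in cisplatin and 1.26 to 4.54 (median 3.79) in paclitaxel. The arms overlapped widely for Socs3, with 12 of 14 cisplatin libraries below the paclitaxel mean. Its difference of -1.46 ± 0.36 (adjusted p = 0.0311) was -0.99 among the 19 libraries, and the call was lost when any one of 12 libraries was left out (adjusted p up to 0.0723). The complement component C4b (-1.23 ± 0.28, adjusted p = 0.0226), the haem scavenger haptoglobin Hp (-1.72 ± 0.44, adjusted p = 0.0407) and Bcl3, a nuclear cofactor of NF-kappaB (-1.29 ± 0.33, adjusted p = 0.0394), were also lower. The call on Hp was lost without any one of 14 libraries (adjusted p up to 0.0968) and that on Bcl3 without any one of 16 (up to 0.0922). Serpina3m, a close relative of Serpina3n whose reads may be shared with it, was listed at 0 estimated counts in 3 of 14 cisplatin libraries and in 0 of 13 paclitaxel libraries, and its estimate of -3.00 ± 0.56 (adjusted p = 0.00916) depends on the 0.5 added to every count. The siderophore-binding protein Lcn2 was not called (-1.46 ± 0.43, adjusted p = 0.0637), and its values spread from -0.16 to 4.08 in cisplatin and from -0.07 to 6.03 in paclitaxel.

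The upstream sequence of Socs3 is shown as that of a STAT3 target in the group, together with those of the metallothionein genes Mt1 and Mt2, which head the list of falls. Each is the stretch of 250 bases before the annotated start in RefSeq (GRCm38.p6), 5′ to 3′ on the strand of the gene. Capitals in Socs3 mark TTCNNNGAA, the palindromic STAT motif. Capitals in Mt1 and Mt2 mark TGCNCNC on either strand, a pattern looser than the core of the metal response element bound by MTF1. The Socs3 window lies at chr11:117969367-117969616 on the minus strand, Mt2 at chr8:94172368-94172617 and Mt1 at chr8:94178839-94179088, both on the plus strand.
Socs3: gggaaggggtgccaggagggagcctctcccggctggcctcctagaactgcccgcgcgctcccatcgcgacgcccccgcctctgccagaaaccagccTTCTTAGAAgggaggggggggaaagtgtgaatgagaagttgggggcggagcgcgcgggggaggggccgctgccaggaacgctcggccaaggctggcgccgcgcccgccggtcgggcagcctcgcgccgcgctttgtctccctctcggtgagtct
Mt2: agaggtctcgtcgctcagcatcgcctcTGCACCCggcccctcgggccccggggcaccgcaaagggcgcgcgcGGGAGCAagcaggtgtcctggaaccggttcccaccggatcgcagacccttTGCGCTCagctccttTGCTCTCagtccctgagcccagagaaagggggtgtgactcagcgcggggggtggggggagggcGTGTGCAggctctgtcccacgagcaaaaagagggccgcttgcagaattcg
Mt1: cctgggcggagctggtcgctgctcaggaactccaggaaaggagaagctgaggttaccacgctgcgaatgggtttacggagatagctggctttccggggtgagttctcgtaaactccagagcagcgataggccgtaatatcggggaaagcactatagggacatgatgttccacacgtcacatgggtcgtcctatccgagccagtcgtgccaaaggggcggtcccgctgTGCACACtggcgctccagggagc
The STAT motif occurred 1 time in the Socs3 window and 0 times in those of Stat3 and Serpina3n, while 7.02% of the 32851 promoter windows of the same length held at least 1. The looser pattern TGCNCNC occurred 5 times before Mt2, a count that 0.344% of windows reached. It occurred 1 time before Mt1, where 44.4% of windows held at least 1. Not every match to it need be a metal response element. A match is a run of letters, and binding was not measured. Sites outside the 250 bases, including any past the annotated start, were not counted, so a low count does not show that a gene lacks them.

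Metallothioneins, small cysteine-rich proteins that bind zinc and copper and can bind platinum, included Mt2 and Mt1, which fell the most of all called genes whose mean over the 27 libraries was 1 or more. Mt2 (ENSMUSG00000031762) lay between 2.25 and 6.18 (median 4.33) in cisplatin and between 3.52 and 9.05 (median 6.86) in paclitaxel. All 14 cisplatin libraries were below the paclitaxel mean, although the arms overlapped. Mt2 was 5.37-fold lower in cisplatin (-2.43 ± 0.47, adjusted p = 0.0114) and Mt1 (ENSMUSG00000031765) was 3.93-fold lower (-1.97 ± 0.43, adjusted p = 0.0169), with -1.73 and -1.19 among the 19 libraries. Untreated tumour hosts had Mt2 at 8.05 ± 1.19 (SD, n = 15) and tumour-free mice at 2.88 ± 1.17, so cisplatin hosts (4.29 ± 1.07, n = 14) stood nearer to the mice without a tumour. Mt1 and Mt2 are related genes. Whether reads were shared between them was not examined, so their separate values may be uncertain. Of 8 measured genes of metallothioneins and zinc handling, Mt1 and Mt2 were called lower and 0 higher, with a median of -0.44. Over all genes 1.82% were called lower and 0.404% higher, shares that also stand beside the lists that follow. Of 19 genes of platinum and copper handling, Mt1 and Mt2 were lower and Slc31a1, the copper transporter that takes up cisplatin, was higher by 0.45 ± 0.12 (adjusted p = 0.0475), with 0.21 among the 19 libraries and a call that was lost without any one of 17 libraries. Hmox1, which degrades haem, was lower (-0.57 ± 0.16, adjusted p = 0.048) as 1 of 3 lower genes among 29 NRF2 and antioxidant genes, whose median moved from -0.20 to 0.00 among the 19 libraries. The other 2 were the extracellular superoxide dismutase Sod3 (-0.86 ± 0.20, adjusted p = 0.0226) and the glutathione peroxidase Gpx1 (-0.40 ± 0.11, adjusted p = 0.0458). The calls on Hmox1 and Gpx1 were each lost without any one of 19 libraries, and that on Sod3 without 1.

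Transcripts of neutrophils were also lower in cisplatin hosts. Of 9 measured neutrophil genes 3 were called lower and 0 higher (1.82% and 0.404% of all genes), and all 9 had a negative difference, with a median of -1.42 and of -1.25 among the 19 libraries. Their summed expression ran from 2.78 to 27.6 CPM in cisplatin and from 6.25 to 99.5 in paclitaxel, so the ranges overlap. Csf3r (ENSMUSG00000028859), the receptor of granulocyte colony-stimulating factor, lay between -1.08 and 1.81 (median 0.60) in cisplatin and between 0.73 and 3.24 (median 1.89) in paclitaxel. Every cisplatin library was below the paclitaxel mean, a difference of -1.40 ± 0.26 (adjusted p = 0.00916) and of -1.29 among the 19 libraries. S100a9, a subunit of calprotectin in the neutrophil cytosol, was 3.47-fold lower (-1.79 ± 0.37, adjusted p = 0.0161). Cxcr2, a receptor that draws neutrophils along chemokine gradients, was listed at 0 estimated counts in 5 of 14 cisplatin and 0 of 13 paclitaxel libraries (-2.94 ± 0.56, adjusted p = 0.00916, a size that depends on the added 0.5). In bulk muscle, fewer cells of a type and less RNA per cell cannot be told apart, here and for the groups that follow.

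Macrophage transcripts formed the group with the largest share of calls, 10 of 22 measured genes lower and 0 higher, against 1.82% of all genes lower. All 22 were negative over the 27 libraries and among the 19, with medians of -0.73 and -0.75. In the 19 libraries 20 had an unadjusted p under 0.05, where 6% of all genes were lower at that threshold. The summed expression of the list ran from 107 to 210 CPM (median 134) in cisplatin and from 157 to 384 (median 221) in paclitaxel. Untreated tumour hosts had a median of 206 and tumour-free mice of 111 CPM. The genes of complement C1q, a product of resident macrophages, were all called lower. C1qa (ENSMUSG00000036887) lay between 3.29 and 4.76 (median 4.05) in cisplatin and between 4.09 and 5.88 (median 4.94) in paclitaxel, and 14 of 14 cisplatin libraries fell below the paclitaxel mean. Its difference was -0.95 ± 0.20 (adjusted p = 0.0161), beside -0.93 ± 0.20 for C1qb and -0.97 ± 0.20 for C1qc. Tyrobp, the signalling adaptor of myeloid receptors, was lower by 2.10-fold (-1.07 ± 0.23, adjusted p = 0.0179). These 4 kept a difference of -0.75, -0.77, -0.74 and -0.97 among the 19 libraries.

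Other immune lists held few genes or few calls, beside 1.82% of all genes called lower and 0.404% called higher. Among 8 genes of MHC class II, which presents antigen to T cells, only H2-Eb1 was called (-0.79 ± 0.21, adjusted p = 0.048), and that call was lost without any one of 20 libraries. All 8 were negative, with a median of -0.48 and of -0.63 among the 19 libraries. Only 4 B cell genes and 1 gene of T and NK cells were measured. Of the B cell genes the tetraspanin Cd37 was lower (-0.80 ± 0.18, adjusted p = 0.0185), and the immunoglobulin heavy chain Ighm had a difference of 1.35 ± 0.50 and was not called (adjusted p = 0.0819). The chemokine Cxcl14 (ENSMUSG00000021508), made by stromal and epithelial cells, lay between 4.68 and 7.21 (median 5.75) in cisplatin and between 5.98 and 7.77 (median 6.84) in paclitaxel. The difference was -1.05 ± 0.18 (adjusted p = 0.00916), and -0.84 among the 19 libraries. The female arms did not overlap for Cxcl14, while the male arms did. The share of all genes without overlap between female arms was not counted, here or below. Genes without a call, such as Gbe1, also had none. Interferon response genes held no call among 44, with a median of 0.27 that was 0.04 among the 19 libraries.

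Genes of the extracellular matrix were lower in cisplatin hosts. Of 30 measured fibroblast and matrix genes 11 were called lower and 0 higher (1.82% and 0.404% of all genes), with a median of -0.52. Among the 19 libraries all 30 were negative (median -0.56). Of them 24 had an unadjusted p under 0.05 there, where 6% of all genes were lower at that threshold. The sum of the list ran from 1682 to 3243 CPM (median 2205) in cisplatin and from 2374 to 5102 (median 2965) in paclitaxel. Untreated tumour hosts had a median of 2403 and tumour-free mice of 2696 CPM, both between the medians of the drug arms. Col4a1 (ENSMUSG00000031502), a chain of the basement membrane collagen, lay between 6.65 and 7.77 (median 6.93) in cisplatin and between 7.10 and 8.49 (median 7.62) in paclitaxel. Female arms did not overlap for it, and 13 of 14 cisplatin libraries were below the paclitaxel mean. The difference was -0.64 ± 0.12 (adjusted p = 0.00916), beside -0.62 ± 0.13 for its partner chain Col4a2 and -0.52 ± 0.11 for Sparc, a collagen-binding glycoprotein. Among the 19 libraries these 3 differed by -0.50, -0.41 and -0.60. In Sparc, unlike in the sum of the list, untreated tumour hosts (7.74 ± 0.26) and tumour-free mice (7.81 ± 0.48) both stood near paclitaxel (7.88 ± 0.34). Cisplatin lay lower in Sparc at 7.40 ± 0.31. Of the 10 largest falls, 2 more belong to connective tissue by their known roles, the joint lubricant proteoglycan Prg4 (-1.61) and the secreted carboxypeptidase-like protein Cpxm1 (-1.22).

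Of 24 endothelial genes 3 were called lower and 0 higher (1.82% and 0.404% of all genes), and 6 had a positive difference. Their median was -0.27, and -0.15 among the 19 libraries. Of 11 smooth muscle and pericyte genes 0 were called lower and 1 (Pln) higher, with a median of -0.09. Vwf, the adhesive protein of endothelial storage granules, lay between 4.39 and 5.62 (median 5.02) in cisplatin and between 5.07 and 6.36 (median 5.61) in paclitaxel (-0.63 ± 0.14, adjusted p = 0.0226). Ackr1, a chemokine-binding receptor of venules, differed by -0.75 ± 0.16 (adjusted p = 0.0168). All 14 cisplatin libraries were below the paclitaxel mean for both genes. Ecscr, an endothelial surface protein outside that list, was lower as well (-0.67 ± 0.12, adjusted p = 0.00916). Erythroid, adipocyte and Schwann cell lists held no call among 7, 20 and 13 genes, with medians of -0.38, -0.17 and -0.34.

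**Figure D3:**
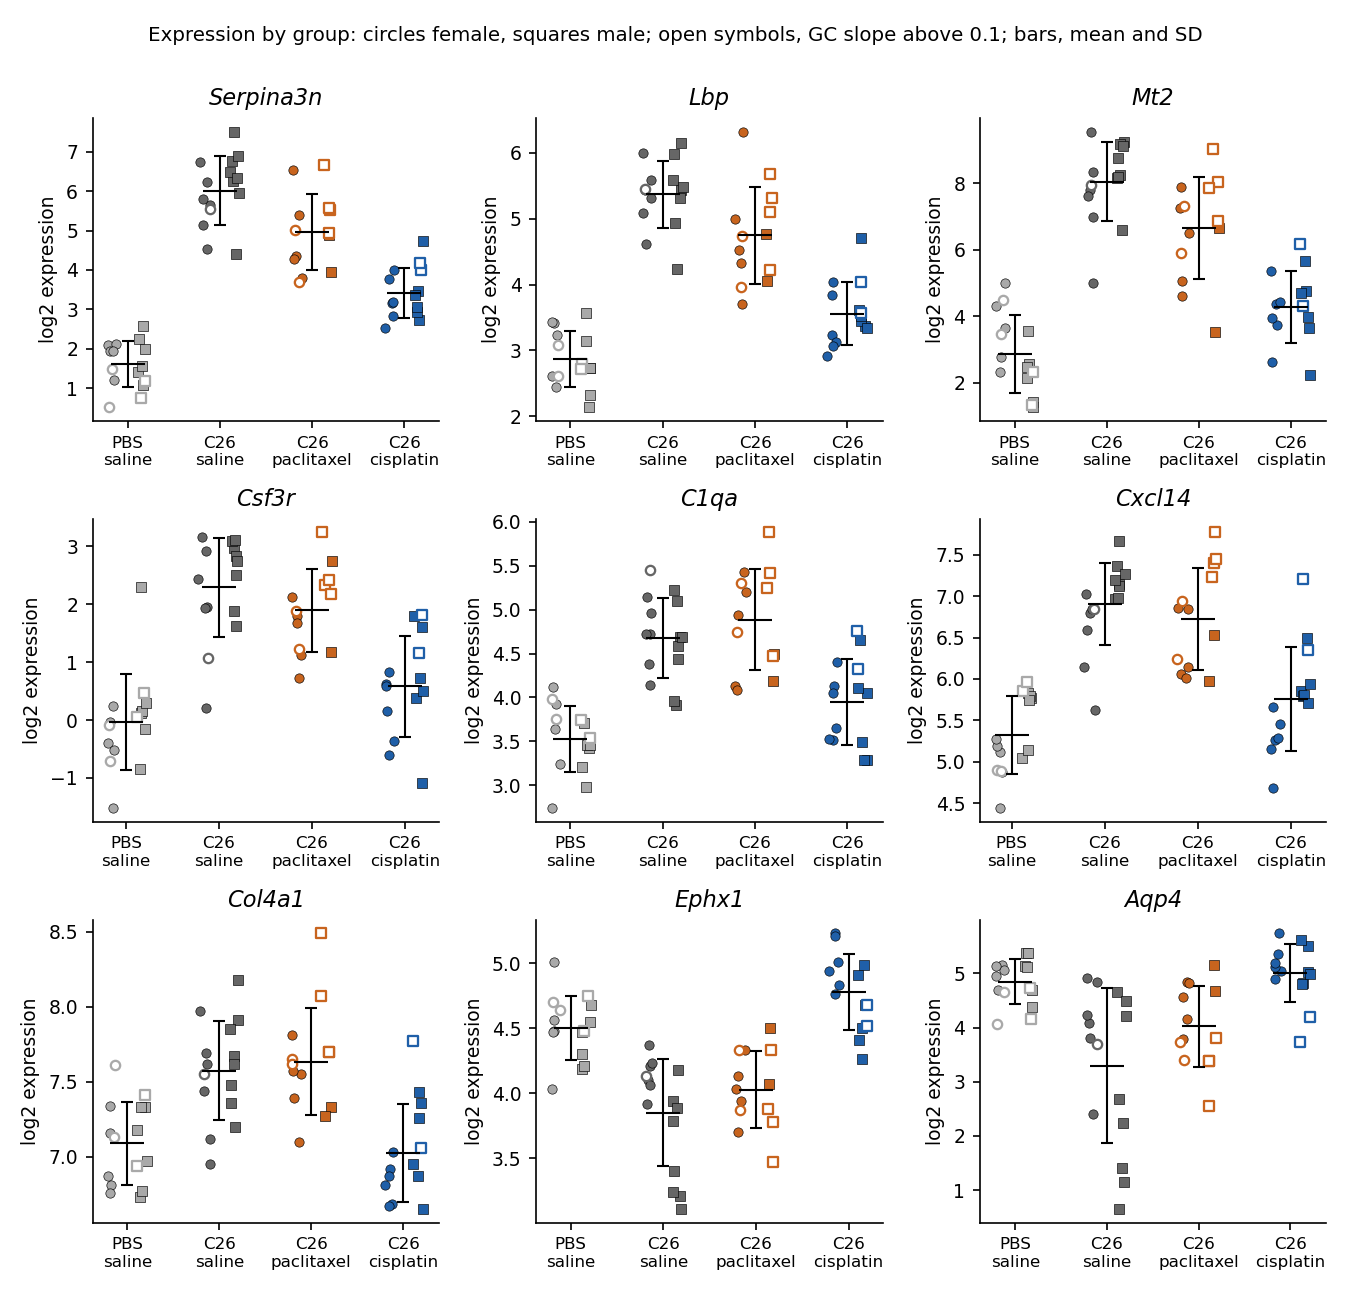
Log2 expression of 9 genes in tumour-free mice (PBS saline), untreated tumour hosts (C26 saline) and the paclitaxel and cisplatin arms, 1 point per library (circles female, squares male; open symbols have a GC slope above 0.1), with the mean and SD of each group as bars. For Lbp the cisplatin libraries sit between 2.91 and 4.71, and for Ephx1 between 4.26 and 5.23 against 3.47 to 4.50 in paclitaxel.

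Among the 56 genes that were higher in cisplatin hosts, Ephx1 (ENSMUSG00000038776) had the smallest p value of the whole comparison. It encodes microsomal epoxide hydrolase, which turns reactive epoxides of drugs into diols. Ephx1 lay between 4.26 and 5.23 (median 4.79) in cisplatin and between 3.47 and 4.50 (median 4.03) in paclitaxel. Female arms did not overlap, and 14 of 14 cisplatin libraries were above the paclitaxel mean. It was 1.71-fold higher (0.78 ± 0.11, adjusted p = 0.000905), with 0.75 among the 19 libraries and 0.77 in a fit that held the GC slope as covariate, where it stayed called (adjusted p = 0.00709). Untreated tumour hosts stood at 3.85 ± 0.41 (SD, n = 15) and tumour-free mice at 4.50 ± 0.25, so the cisplatin mean of 4.78 ± 0.29 was above all 3 other group means.

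The other large rises had larger p values. Aqp4, the water channel of the fast fibre membrane, lay between 3.74 and 5.74 (median 5.03) in cisplatin and between 2.56 and 5.16 (median 3.80) in paclitaxel, a difference of 1.02 ± 0.23 (adjusted p = 0.0217). Its arms did not overlap in females, and the difference was 0.59 among the 19 libraries. Pln, which restrains the calcium pump SERCA, was higher by 0.98 ± 0.21 (adjusted p = 0.0161), and the circadian transcription factor Hlf by 0.79 ± 0.19 (adjusted p = 0.0261). Among the 19 libraries these stood at 0.66 and 0.41. Esrrg, a nuclear receptor that drives oxidative metabolism, differed by 0.90 ± 0.24 (adjusted p = 0.0458) and by 0.58 among the 19 libraries. The call on Esrrg was lost without any one of 18 libraries. The rest of the 10 largest rises were Zfp770 (0.88), Ccdc50 (0.74), Bmpr1a (0.74), Klhl23 (0.67), Ccdc14 (0.64) and Dcp2 (0.63). Bmpr1a is a receptor of bone morphogenetic proteins and Dcp2 removes the cap of mRNAs. For Zfp770, Ccdc50 and Bmpr1a the difference among the 19 libraries was 0.34, 0.41 and 0.39.

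Genes tied to how each drug acts are set beside the 2.22% of all genes that were called. At that share, lists of this size would hold few calls or none. Of 32 measured p53 targets none passed limma in either direction, and their median of 0.07 was the same among the 19 libraries. The cell cycle inhibitor Cdkn1a lay between 4.09 and 7.96 (median 5.77) in cisplatin and between 4.20 and 8.36 (median 5.59) in paclitaxel, with a difference of -0.15 ± 0.36 (adjusted p = 0.777). Mdm2, the ubiquitin ligase that p53 induces against itself, had no overlap between female arms and a difference of 0.31 ± 0.10 that missed the threshold (adjusted p = 0.0719), with 0.29 among the 19 libraries. Opposite signs without a call were found for the cyclin Ccng1, at 0.53 ± 0.17 (adjusted p = 0.0688) and the Akt inhibitor Phlda3, at -0.44 ± 0.14 (adjusted p = 0.0734). No call fell among 33 genes of DNA crosslink repair (median 0.16, and 0.02 among the 19 libraries), where the damage sensor Ddb2 had the smallest adjusted p (0.37 ± 0.11, adjusted p = 0.0666). Of 15 tubulins and 38 microtubule-binding and tubulin-folding genes, 0 were called. The tubulin median was -0.23 over all libraries and -0.01 among the 19, and Tubb6 went from -0.49 ± 0.20 (adjusted p = 0.0998) to -0.08. Of 14 genes of taxane and drug transport, 2 organic anion transporters were lower and 0 genes higher (1.82% and 0.404% of all genes). Slco2b1 differed by -0.39 ± 0.08 (adjusted p = 0.0161) and by -0.38 among the 19 libraries, and the prostaglandin transporter Slco2a1 by -0.85 ± 0.19 (adjusted p = 0.0203) and by -0.82. The list median was 0.03. A p value above the threshold does not show that the arms were alike.

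In the wasting programme, neither Fbxo32 nor Trim63 was called between the drugs. The counts of the lists below stand beside 1.82% of all genes called lower and 0.404% called higher. Fbxo32, the muscle ubiquitin ligase atrogin-1, lay between 6.69 and 9.92 (median 8.38) in cisplatin and between 6.60 and 11.1 (median 8.90) in paclitaxel, and Trim63, the ligase MuRF1, between 6.89 and 11.2 (median 8.00) and between 7.02 and 12.0 (median 8.24). The arms overlapped widely for both ligases. Tumour-free mice averaged 7.88 and untreated tumour hosts 9.55 for Fbxo32. The differences were -0.40 ± 0.31 (adjusted p = 0.348) and -0.52 ± 0.39 (adjusted p = 0.329). Foxo1, the transcription factor upstream of both ligases, differed by -0.19 ± 0.30 (adjusted p = 0.67). Of 27 ubiquitin ligases and atrophy genes, Trim55, the sarcomeric ligase MuRF2, was higher (0.42 ± 0.11, adjusted p = 0.0441) and the F-box protein Fbxo31 was lower (-0.63 ± 0.17, adjusted p = 0.0458), both with calls that were lost without any one of 17 or 18 libraries. The translation repressor Eif4ebp1, a FoxO target, was lower (-1.06 ± 0.29, adjusted p = 0.048) and stood at -0.49 among the 19 libraries, with a call that was lost without any one of 19 libraries. It was 1 of 3 genes called lower among 30 FoxO and glucocorticoid targets (0 higher, median -0.12, and 0.02 among the 19 libraries), beside Mt2 and the transglutaminase Tgm2 (-0.68 ± 0.15, adjusted p = 0.0217). Igfbp4, a binding protein of insulin-like growth factors, was the single call among 27 genes of IGF, insulin and myostatin signalling (-0.68 ± 0.15, adjusted p = 0.02, and -0.63 among the 19 libraries). Neither 32 proteasome subunits nor 35 autophagy and lysosome genes held a call, with medians of -0.06 and -0.07. At the shares over all genes, lists of this size would hold few calls or none. The nicotinamide riboside kinase Nmrk2, a muscle enzyme of NAD synthesis, differed by 1.05 ± 0.40 without a call (adjusted p = 0.0852). Its values in cisplatin (4.90 to 7.04) lay within the wider range in paclitaxel (3.19 to 8.00), with 13 of 14 cisplatin libraries above the paclitaxel mean.

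The lists of mitochondrially encoded mRNAs, nuclear-encoded respiratory chain genes and cytosolic ribosomal proteins held no call, where 2.22% of all genes were called. Of 30 ribosome biogenesis genes 1 was called lower and 0 higher (1.82% and 0.404% of all genes). The 13 mitochondrially encoded mRNAs were all positive with a median of 0.98 and no call, and the median was 0.21 among the 19 libraries and -0.02 in the fit holding the GC slope. The 79 cytosolic ribosomal proteins had a median of -0.31 that became -0.13 among the 19, also without a call. The 77 nuclear-encoded genes of the respiratory chain changed sign in their median, from -0.14 to 0.06. The fast fibre list of 18 genes had a median of -0.02 and no call.

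**Figure D4:**
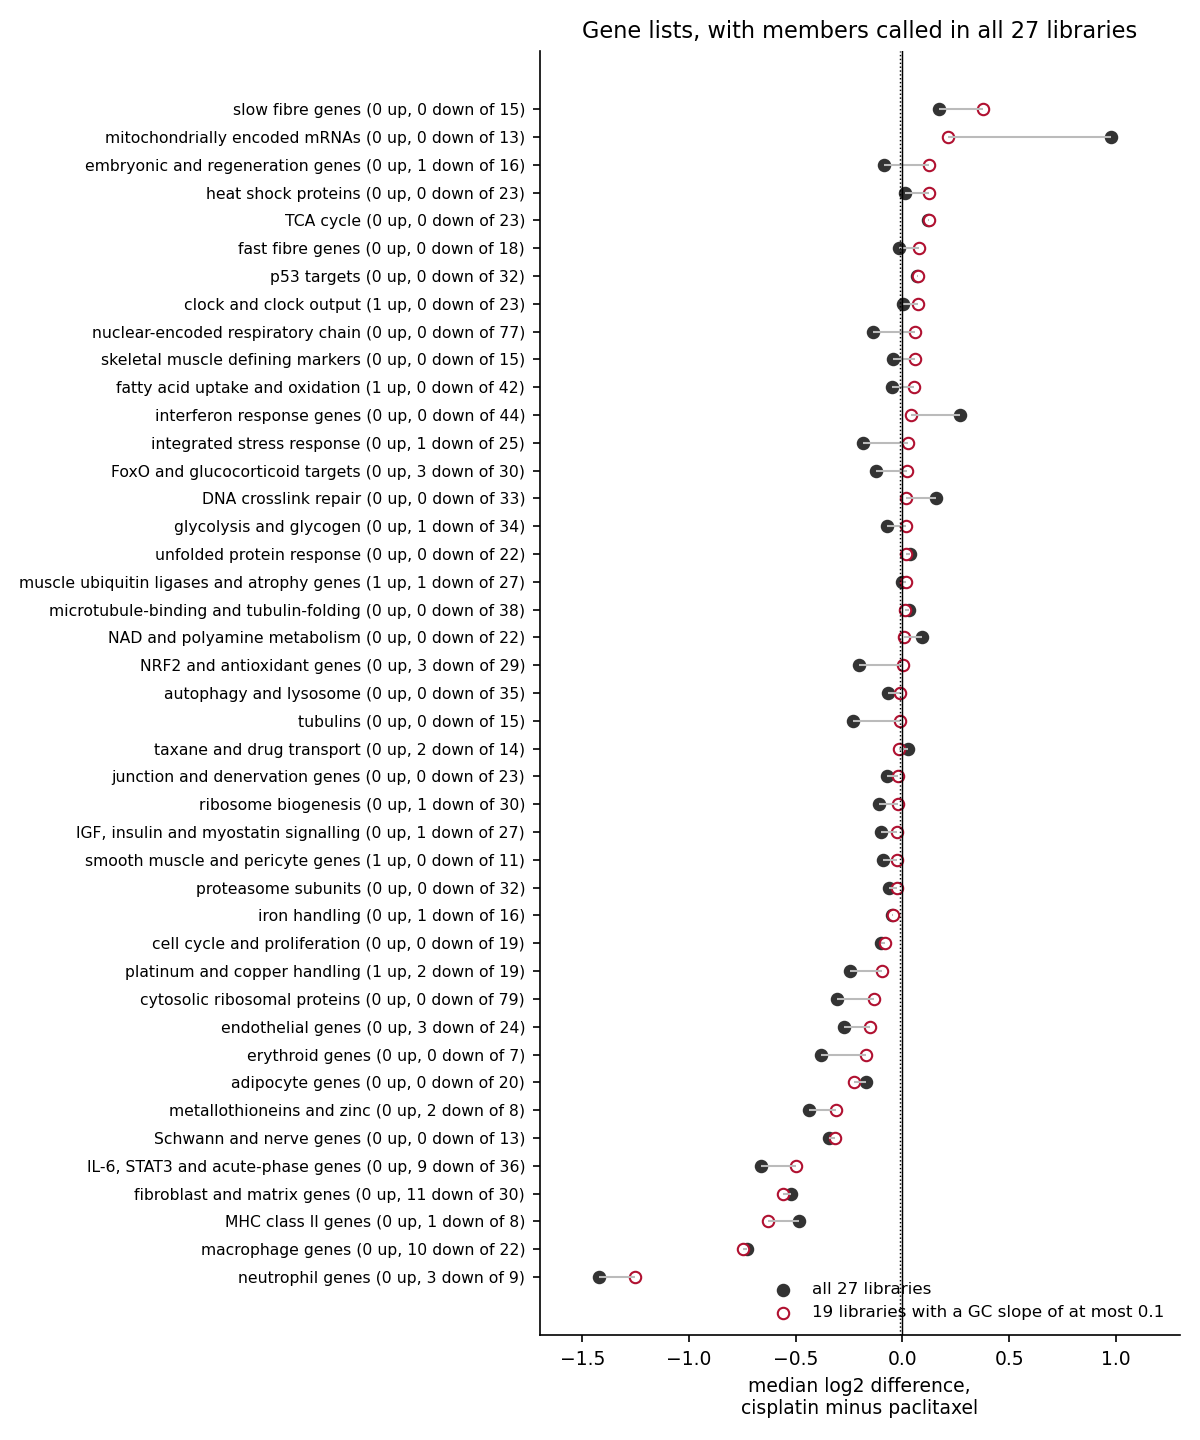
Medians of the log2 difference (x axis) for the lists with at least 5 measured genes, over all 27 libraries (filled) and over the 19 with a GC slope of at most 0.1 (open), with the number of members called beside each name; the dotted line is the median of all genes. The neutrophil, macrophage, matrix and acute-phase lists have the medians of -1.42, -0.73, -0.52 and -0.66 over all libraries, and the mitochondrially encoded mRNAs move from 0.98 to 0.21.

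Within each sex the contrast rests on fewer libraries. In females (6 against 7) limma called 1 gene, Ephx1 (0.00722% of genes; 0.95, adjusted p = 0.0113), and 1007 genes (7.27%) had an unadjusted p under 0.05. Without female cisplatin replicate 3 the Ephx1 difference was 0.91 and its adjusted p 0.0684, so that no gene was called. Among the 19 libraries the female contrast also called 1 gene. In males (8 against 6) none was called and 3083 (22.3%) had an unadjusted p under 0.05, with Ephx1 at 0.61 (adjusted p = 0.214). Without male cisplatin replicate 4, one of the libraries with a high GC slope, the male count was 2591. All 308 genes called over both sexes had the same sign in each, a description, since both sexes entered the call. Medians were -0.72 in females and -0.70 in males for the lower genes, and 0.45 and 0.55 for the higher ones. The test of the difference between sexes called no gene, with 147 (1.06%) at an unadjusted p under 0.05.

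The median of the slow fibre list had opposite signs in the sexes. Its 15 genes had a median of 0.84 in females and -0.38 in males, all 15 were positive in females and 0 in males, and 10 had an unadjusted p under 0.05 for the difference between sexes. Without male paclitaxel replicate 6 the male median was -0.19, 2 were positive in males and 4 had such a p. That count was 5 without female paclitaxel replicate 1, 6 without male paclitaxel replicate 1 or male cisplatin replicate 5 or 8, and 2 among the 19 libraries. The adjusted p was 1 for the 4 named by the rule (Fhl1, Casq2, Tpm3 and Atp2a2). Slow fibre genes vary together with the fibre makeup of a sample and are not independent of each other. Casq2, the calcium-binding protein of slow and cardiac muscle, differed by 1.20 in females and by -0.07 in males (difference -1.26 ± 0.48, unadjusted p = 0.0136 in limma). The male value was 0.25 without male paclitaxel replicate 6 and 0.11 without male cisplatin replicate 5, so its sign rests on single libraries. Fhl1, a sarcomere-associated LIM protein, differed by 0.74 and by -0.22. Sbk3, a kinase of striated muscle, had the smallest unadjusted p among genes with an established name, 0.000789, at 1.39 in females and -0.31 in males.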

How the data were processed

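Per the labels' protocols, total RNA was isolated by TRI-zol and a PureLink kit, and libraries were read in paired ends on an Illumina platform. The submitters' processing notes name FastQC, MultiQC, fastp, Salmon, edgeR, limma and the builds mm39 and GRCm39, without versions or roles. The deposited table holds log2 values, 1 per gene and library, whose normalization and filter were not stated. Their steps fit an estimated count plus 0.5 over a scaled library size, from which depth was recovered. Of 75 labelled samples 1 had no column, and 1 female sample with conflicting labels was assigned to no group.

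The contrast was fitted to the log2 values of 27 libraries with limma 3.58.1 in R 4.3.3 (lmFit, eBayes with a trend, two-sided), with sex as a block and Benjamini-Hochberg adjustment over 13856 genes. Contrasts within sex and their difference came from 4 group means in 1 fit. Library measures were compared by two-sided permutation tests with 100000 resamples within sex. Transcript GC content came from GENCODE vM21, which covered 99.5% of genes and gave symbols to 288 genes without one. The GC slope was fitted over 10640 genes of mean log2 value 1 or more, and its limit of 0.1 was chosen after slopes had been seen. Genes were named as the 10 biggest rises and 10 biggest falls among called genes with that mean and an established symbol, up to 4 members with the smallest adjusted p in each of 45 lists, 16 fixed genes, and the 5 smallest p values of each other contrast. The members and lists were chosen with earlier results of these data known. The fits were tested on simulated data. Promoter windows and their motif counts come from RefSeq (GRCm38.p6), a build other than that of the notes. No pair of libraries within a group differed by as little as counting noise. A term for GC class and a weight per drug arm were alternatives added after seeing the data. Values of near-identical gene copies are uncertain.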

Additional observations from a re-analysis of the deposited data

Results flagged for a closer look

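Single libraries stood far from the other replicates of their group in 10 of 252 sets of values examined. The test has a chance level of 1 in 20 for a single set. These sets share libraries and are not independent, so that level does not tell how many flags chance would give. Male cisplatin replicate 4, which has the highest GC slope of the 27 libraries, was the highest of its group for Col4a2 (7.94 against 6.67 to 7.26), Fbxo31 (8.81 against 7.51 to 7.94) and Eif4ebp1 (7.66 against 5.55 to 5.85). The same library was the lowest of its group for Trim55 (5.22 against 5.77 to 6.10) and Klhl23 (3.15 against 3.99 to 4.51). Female cisplatin replicate 4 was highest for Eif4ebp1 (6.19 against 4.77 to 5.30) and female cisplatin replicate 3 for Slc31a1 (4.40 against 4.11 to 4.20). Among paclitaxel libraries, male replicate 4 was lowest for Bcl3 (0.22 against 1.79 to 2.61), male replicate 6 was highest for Casq2 (5.86 against 3.68 to 4.22) and female replicate 3 was lowest for Ighm (-0.33 against 1.07 to 1.74).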

How the results depend on the processing

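The count of 308 genes over both sexes stayed within 1.5 times under quantile normalization, a mean filter, another pseudocount, no variance trend and a weight per drug arm (243 to 407). It was 2803 with all 10 groups in the fit and 2308 with quality weights, which held 308 and 305 of the 308. It was 36 (2 higher, 34 lower, against 56 and 252) when libraries were scaled without mitochondrial mRNAs, 16 with GC class as a term, 2 with the GC slope and 3 with the mitochondrial share as a covariate, and 0 without the libraries above a slope of 0.1 (1270 at an unadjusted p under 0.05). A fit with the replicate block called 0 (2348 unadjusted); same-numbered libraries correlated at -0.62 to 0.27, so the numbers do not pair them. With 1 library left out the count ran from 77 (without male paclitaxel replicate 5) to 4429 (without male cisplatin replicate 4); it was 2549 and 2481 without male paclitaxel replicates 4 and 6, 557 without female paclitaxel replicate 4, within 1.5 times in 7 cases, and 113 to 197 in the others, namely female paclitaxel 2, 3, 6 and 7, female cisplatin 1, 3, 5 and 6, male paclitaxel 1 and 3, and male cisplatin 1, 2, 3, 5 and 7. The female count of 1 was 4 under quantile normalization, 3 with all groups, 663 with quality weights, 2 without a trend, 0 with the replicate block, 0 under the mitochondria-free scaling, and 0 to 2 with 1 library left out. The male count of 0 was 2 with all groups and 3730 with quality weights, and 0 to 2591 with 1 library left out (21 without male paclitaxel replicate 4, 2591 without male cisplatin replicate 4). The difference between sexes gave 0 in limma under every alternative run. Of 61 called genes named by the rule, 29 stayed called with each of 27 libraries left out in turn, and no named gene called with or without an alternative had its pooled difference change sign. With 1 library left out, the members called were 4 to 23 of the acute-phase list, 4 to 15 of the macrophage list, 3 to 19 of the matrix list, 3 to 7 of the neutrophil list and 1 to 11 of the endothelial list; the lowest counts came without male paclitaxel replicate 5, and for macrophages also without female cisplatin replicates 3, 5 and 6, except that the neutrophil count of 3 was the main count. The causes were not tested. Counts recovered from the log2 values are estimates, so no count test was run.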

Other observations

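For 211 of the 252 genes that were lower in cisplatin in C26 hosts and for 39 of the 56 that were higher, the mean of untreated tumour hosts lay nearer to paclitaxel than to cisplatin. It lay beyond the paclitaxel mean, on the side away from cisplatin, for 97 and 10 of them. These positions were not tested, and the matching shares over all genes were not computed. The genes were chosen by their difference between the drugs, so the counts do not tell which arm changed.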
